A study of Mus musculus with 4 samples.

Results

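The 8 genes described here are Dlx1, Dlx2, Dlx5, Dlx6, the long non-coding RNA Dlx6os1, Gsx1, Gsx2 and Sp8, regulators of the ganglionic eminences, the ventral swellings of the embryonic forebrain that give rise to GABAergic neurons. They were taken by symbol, as every probe set whose annotation gave a member and no other gene, and each gene had 1 probe set, so they account for 8 of 45137 probe sets and 8 of 18193 genes. The cells were given as neurospheres, floating cultures of neural stem and progenitor cells and their progeny. They came from the forebrain of E12.5 mouse embryos, with the ventral telencephalon given as the source. There was 1 RNA sample from cultures labelled E2f4 knockout (KO) and 1 from wild-type cultures, and each RNA was hybridised to an Affymetrix MOE430A and an MOE430B array. The labels give neither the knockout allele, the strain and the passage nor how many embryos or cultures each RNA came from. As each genotype was a single sample, the values below have no replicate error and no test, and they compare these samples rather than the genotypes. The study's labels state its purpose as finding pathways that change when E2f4, a cell-cycle repressor of the E2F family, is deleted in neural stem cells.

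In the ventral forebrain, Gsx2 and Gsx1 are homeobox transcription factors of dividing progenitors, and Gsx2 sets the identity of the lateral ganglionic eminence. Dlx1 and Dlx2 come on in these progenitors and are needed for their neurons to mature, migrate and make GABA, and they activate Dlx5 and Dlx6, which act later in the same cells. The Dlx genes lie in neighbouring pairs, and Dlx6os1, also called Evf2, is transcribed across Dlx6 from the opposite strand and regulates the Dlx5 and Dlx6 pair. Sp8 is a zinc-finger factor of the dorsal part of the lateral eminence and of its olfactory bulb interneurons, and it is also used in progenitors of the cortex.

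The promoter sequences of both Dlx loci are shown because Dlx5, Dlx6os1 and Dlx2 had the lowest log2 ratios of the measured members. They are the 250 bases before an annotated transcript start in RefSeq, build GRCm38.p6, written 5′ to 3′ on the gene's strand. The Dlx1 stretch is chr2:71529195-71529444 on the plus strand and that of Dlx2 is chr2:71546755-71547004 on the minus strand. Dlx6os1 has annotated starts with stretches at chr6:6861684-6861933 and chr6:6869534-6869783, both on the minus strand. Capitals mark matches to the homeodomain core TAATTA or to the GC box GGGCGG on either strand, where a GC box on the other strand reads CCGCCC.
Dlx1: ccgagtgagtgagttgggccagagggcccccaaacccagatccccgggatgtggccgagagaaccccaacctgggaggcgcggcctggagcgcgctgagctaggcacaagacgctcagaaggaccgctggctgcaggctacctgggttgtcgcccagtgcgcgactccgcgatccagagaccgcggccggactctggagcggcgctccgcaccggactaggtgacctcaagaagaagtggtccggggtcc
Dlx2: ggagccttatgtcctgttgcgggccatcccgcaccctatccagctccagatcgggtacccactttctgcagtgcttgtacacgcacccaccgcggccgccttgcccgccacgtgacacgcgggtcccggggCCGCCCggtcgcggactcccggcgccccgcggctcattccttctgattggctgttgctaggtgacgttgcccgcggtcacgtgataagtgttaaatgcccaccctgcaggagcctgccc
Dlx6os1, first stretch: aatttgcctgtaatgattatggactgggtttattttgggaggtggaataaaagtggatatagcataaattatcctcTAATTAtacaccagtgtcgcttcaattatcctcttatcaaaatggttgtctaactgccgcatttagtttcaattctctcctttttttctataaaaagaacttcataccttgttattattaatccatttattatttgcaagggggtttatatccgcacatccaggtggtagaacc
Dlx6os1, second stretch: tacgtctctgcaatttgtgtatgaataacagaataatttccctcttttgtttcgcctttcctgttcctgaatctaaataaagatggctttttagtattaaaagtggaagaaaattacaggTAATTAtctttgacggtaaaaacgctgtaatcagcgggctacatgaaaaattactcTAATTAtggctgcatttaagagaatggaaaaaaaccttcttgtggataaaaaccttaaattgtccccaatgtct

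TAATTA reads the same on both strands and is a core bound by many homeodomain proteins, DLX proteins among them. It stood 2 times in the second Dlx6os1 stretch, 130 and 74 bases before the start, and 1 time in the first, at 174 bases. Of 32851 RefSeq promoters of the same length, 4.84% held it. Neither this share nor those given below was matched for G and C content. The Dlx1 and Dlx2 stretches held none, and at 68.0% and 66.4% they were richer in G and C than those of Dlx6os1, at 34.0% and 33.2%, where the median of all promoters was 52.4%. A GC box stood 119 bases before the Dlx2 start, and 32.7% of all promoters held one. Among the stretches not shown, TAATTA stood in 1 of the 3 of Sp8, 188 bases before the start, and a GC box in another of Sp8 and in that of Gsx2, at 14 and 13 bases. The Gsx1 stretch held neither. The E2F-type sequences TTTCCCGC, TTTGGCGC, TTTCGCGC and TTTGCCGC, searched on both strands, were in none of the 9 stretches found for 6 of the 8 members, and in 1.86% of all promoters. These matches describe letters in these windows only. Dlx5 and Dlx6 were the members with no entry in the table.

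Signals are MAS5 values on a linear scale, and log2 ratios are KO over wild type on the same array design, centred on the design's median. Measured probe sets were those with both samples at or over a floor of 736 on MOE430A and 942 on MOE430B, the median over all signals of each design. Of the 8 members, 6 were measured, Gsx1 passed the floor only in the wild type and Dlx6 in neither sample. The floor leaves out a member that is low in 1 sample, so counts over the 6 describe those 6. How many of all probe sets passed the floor in 1 sample only was not counted. As a check of the labels, E2f4 had 1 probe set, with a signal of 1535 in the sample labelled KO and 1812 in the wild type, a log2 ratio of -0.24. Where this probe set lies relative to the deletion was not stated, so it does not check the label. Xist, the RNA that silences an X chromosome in female cells, read 1178 in the KO sample and 8980 in the wild type on its measured probe set, so the samples differed in it as well, and its part in the results was not tested. The Gapdh control, read as 3' over 5' signal to gauge RNA integrity, was 0.898 in the KO sample and 0.862 in the wild type on MOE430A, and 0.799 in the KO sample and 0.948 in the wild type on MOE430B. Both arrays of a design were hybridised on 1 day, the designs on 2 different days, so the values within a design are within a day.

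The measured transcripts of both Dlx loci had lower signals in the KO sample than in the wild type, Dlx5 and Dlx6os1 by the most among the measured members, while Gsx2 differed little and Sp8 was higher. Of the 6 measured members, 5 were lower in the KO sample, where 50.2% of all 10171 measured genes were lower. Dlx5 and Dlx6os1 were lower by at least 1.5-fold, 2 of 6, against 3.86% of all measured genes, and none was higher by that much, against 3.51%. None was lower by 2-fold, against 0.482% of all. The members' median log2 ratio was -0.40, and that of all measured genes was 0.00.

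**Figure D1:**
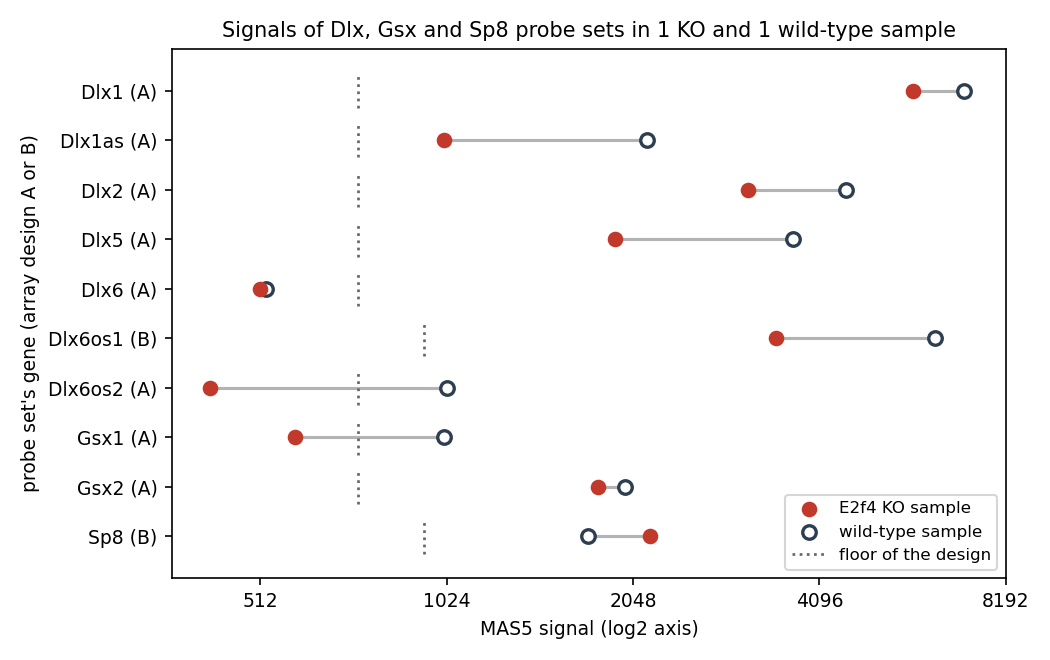
Signal of each member's probe set, and of the antisense transcripts Dlx1as and Dlx6os2, in the KO sample (filled) and the wild-type sample (open), on a log2 axis with the floor of each design dotted; A and B name the design. The KO point lies left of the wild-type point for every gene shown except Sp8, and the Dlx6 points nearly coincide below the floor.

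Among the genes of progenitors, Gsx2 had a signal of 1795 in the KO sample and 1984 in the wild type. These differ by a log2 ratio of -0.14, and 28.4% of the 10399 measured probe sets of MOE430A had a ratio at or below it. Gsx1, which promotes the passage of progenitors towards differentiation, read 583 in the KO sample and 1013 in the wild type. The KO signal lay below the floor at 79.3% of it and the wild-type signal lay above at 138%, so Gsx1 was at least 1.38-fold lower in the KO sample, a bound under the 1.5-fold size.

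The pair on chromosome 2 came next. Dlx1 read 5805 in the KO sample and 7012 in the wild type, a log2 ratio of -0.27, with 15.8% of measured probe sets of its design at or below it. Dlx2 read 3140 in the KO sample and 4528 in the wild type, a log2 ratio of -0.52, or 1.44-fold lower, with 3.68% at or below. Both genes stayed well over the floor in both samples, and Dlx2 fell short of the 1.5-fold size. Dlx1as is an antisense RNA that overlaps Dlx1 in the annotation and extends towards Dlx2. It was added because of its place at the locus, after the members were fixed. Its signal was 1014 in the KO sample and 2156 in the wild type, a log2 ratio of -1.09, which is 2.12-fold lower, with 0.0673% of measured probe sets at or below it. At the 2-fold size, 0.163% of the measured probe sets of MOE430A were lower.

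The pair on chromosome 6 held the members farthest from 0. Dlx5 read 1916 in the KO sample and 3710 in the wild type, with both samples well over the floor. Its log2 ratio was -0.95, or 1.93-fold lower, and 0.25% of measured probe sets of MOE430A had a ratio at or below it. Lower by at least 1.5-fold were 2.7% of all measured probe sets of MOE430A, and 1.68% of those in the same signal quintile as Dlx5. Dlx6os1, measured on the other design, read 3482 in the KO sample and 6293 in the wild type, a log2 ratio of -0.85, or 1.81-fold lower. MOE430B had the wider spread, with an SD of 0.43 on the log2 scale against 0.29 on MOE430A, and 2.82% of its 9528 measured probe sets lay at or below Dlx6os1. In its own signal quintile, the brightest, 3.25% were lower by at least 1.5-fold, and 8.09% over the whole of MOE430B.

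Dlx6 itself, the partner of Dlx5, read 512 in the KO sample and 522 in the wild type, both under the floor, so its probe set gives no ratio for the gene. Dlx6 and Dlx6os1 overlap in the annotation, and where their probes lie in the shared stretch was not given. Dlx6os2, a further RNA that overlaps Dlx6 and was added in the same way as Dlx1as, read 424 in the KO sample and 1026 in the wild type. Only the wild-type signal passed the floor, which puts Dlx6os2 at least 1.40-fold lower in the KO sample. Of the 4 transcripts at this locus, Dlx5 and Dlx6os1 were measured, on different designs that shared the same RNA.

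Sp8 was the measured member on the other side. It read 2184 in the KO sample and 1735 in the wild type, a log2 ratio of 0.33, or 1.26-fold higher, and 19.9% of the measured probe sets of MOE430B lay at or above it. Higher by at least 1.5-fold were 7.92% of all measured probe sets of MOE430B, and 9.08% in the signal quintile of Sp8.

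**Figure D2:**
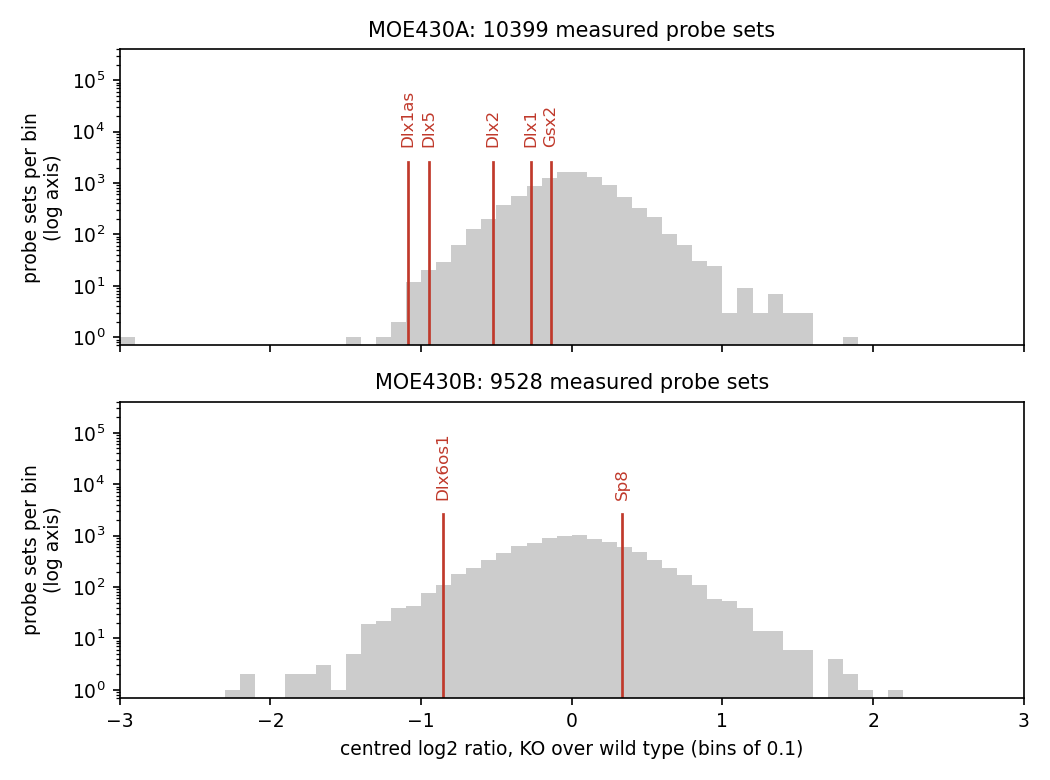
Centred log2 ratios of KO over wild type for all measured probe sets (grey, probe sets per bin of 0.1 on a log axis), with measured members and Dlx1as as red lines. On MOE430A, Dlx5 at -0.95 and Dlx1as at -1.09 stand in the lower tail and Gsx2 at -0.14 near the centre; MOE430B is wider, and Dlx6os1 at -0.85 stands nearer to its bulk.

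As each member had 1 probe set, no repeat of its measurement was available, and the error between arrays was gauged from other probe sets. The pooled SD of log2 ratios between probe sets of the same gene was 0.33 over 3956 genes, and 99 probe sets measured on both designs gave an SD of 0.31 for the difference between designs. Dlx5 lay 2.85 of the SDs between probe sets of a gene from 0, Dlx6os1 2.56 and Dlx2 1.58. Dlx1 at 0.81 and Gsx2 at 0.42 lay within that spread, and Sp8 lay at its edge. The pooled SD joins both designs, and MOE430B, which holds Dlx6os1 and Sp8, had the wider ratios, with an SD of 0.43 against 0.29. The multiples of Dlx6os1 and Sp8 are therefore not on the same footing as those of the MOE430A members. The spread between probe sets includes real differences between transcripts of a gene, and it does not include the spread between cultures.

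Of 12 other transcription factors of ventral progenitors with a probe set, 6 were measured, so the counts leave out the remaining 6. In the KO sample 5 were lower and 1 higher, where 50.2% of all measured genes were lower, and the median log2 ratio was -0.38. Lower by at least 1.5-fold was 1, against 3.86% of all measured genes, and none was higher by that much. Vax1, a homeobox gene of the ventral forebrain and optic stalk, read 3309 in the KO sample and 5798 in the wild type, a log2 ratio of -0.81. Its measured probe set was on MOE430B, where 8.09% of measured probe sets were lower by at least 1.5-fold. Nr2f2, a nuclear receptor of the caudal ganglionic eminence, was at -0.52 from 4 measured probe sets between -0.60 and -0.47. Nr2f1, its relative, was at -0.39 and Nkx2-1, which marks the medial eminence, at -0.36.

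The genes of GABAergic neurons that Dlx factors act upstream of, or that mark the neurons from the eminences, included 41 names. Of these, 36 were on the arrays and 27 were measured, so the counts leave out the others. In the KO sample 21 were lower and 6 higher, with a median log2 ratio of -0.35, where 50.2% of all measured genes were lower. Lower by at least 1.5-fold were 5, against 3.86% of all, and none was higher by that much. Lhx8, of forebrain cholinergic neurons, stood at -1.02 and read 806 in the KO sample and 1632 in the wild type. Npy, a neuropeptide, was at -0.90, Ackr3, a chemokine receptor of migrating interneurons, at -0.74 and Calb1, a calcium-binding protein, at -0.72. In the KO sample Ackr3 read 790 and Calb1 814, so both, like Lhx8, lay near the floor of 736. The other Calb1 probe sets were below the floor in both samples. The remaining gene of the 5 was Gad2, a GABA-synthesising enzyme named after its values were seen, at -0.63 from probe sets at -0.82 and -0.44. Lhx6, of migrating interneurons, passed the floor only in the wild type on 2 probe sets. The brighter of them was at least 3.64-fold lower in the KO sample and the other at least 1.23-fold. Sst, a neuropeptide of interneurons, likewise passed the floor only in the wild type, with 124 in the KO sample and 2500 in the wild type. It was at least 3.4-fold lower in the KO sample. The share of all probe sets with bounds of these sizes was not counted, so how unusual they are is not known.

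Factors of the dorsal telencephalon, the future cortex, lay on the other side. Of 15 listed, 14 were measured, 11 higher and 3 lower in the KO sample, beside 49.8% of all genes higher, with a median log2 ratio of 0.47. Higher by at least 1.5-fold were 3, against 3.51% of all, and none was lower by that much. Dmrta2, of cortical progenitors, read 16234 in the KO sample and 8664 in the wild type, a log2 ratio of 0.91. Its probe set was on MOE430B, where 7.92% of measured probe sets were higher by at least 1.5-fold. Eomes, of intermediate progenitors, was at 0.69, Fezf2 at 0.64 and Tbr1 at 0.58, both factors of deep-layer neurons. The labels name the ventral telencephalon as the source, and Dlx1, Dlx2, Gsx2 and Nkx2-1 passed the floor in both samples, as did Eomes, Tbr1 and Fezf2 of the cortex. Nkx2-1 read 796 in the KO sample, with the floor at 736. Dlx4, of the Dlx pair not used in the forebrain, also passed the floor of both designs, so passing does not by itself show expression. The part of cortical cells in the members' values was not tested.

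**Figure D3:**
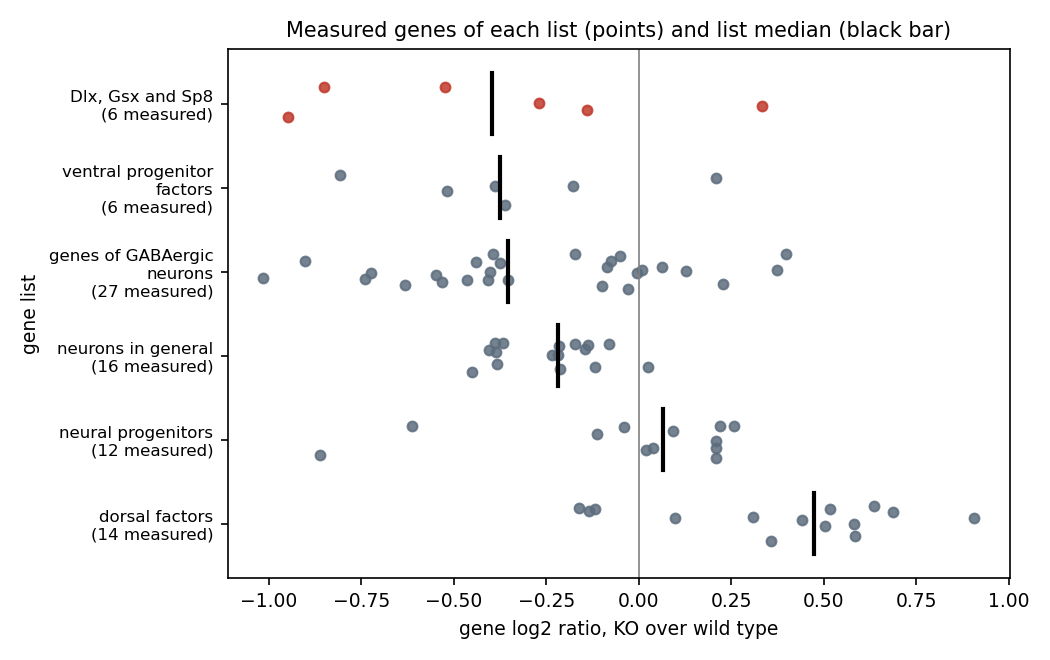
Log2 ratio of KO over wild type for each measured gene (points) and list median (black bar). Dlx, Gsx and Sp8 genes, ventral progenitor factors and genes of GABAergic neurons have medians from -0.40 to -0.35, neurons in general -0.22, neural progenitors 0.07 and dorsal factors 0.47.

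In bulk RNA, fewer cells of a type and less RNA per cell cannot be told apart. Markers of neurons in general lay on the same side as the Dlx genes, with 15 of 16 measured genes lower and a median log2 ratio of -0.22. None of them was lower by 1.5-fold. Of all measured genes, 50.2% were lower, and 3.86% by at least 1.5-fold. Their summed signal was 223398 in the KO sample and 254380 in the wild type on MOE430A, and 75240 in the KO sample and 94153 in the wild type on MOE430B. Progenitor markers had a median of 0.07 with 8 of 12 higher, beside 49.8% of all measured genes, a small difference for so few genes. Lower by at least 1.5-fold were 2, against 3.86% of all measured genes, both named after their values were seen. None was higher by that much, against 3.51%. These were Hes5 at -0.86, from probe sets at -1.48 and -0.24, and Sox1 at -0.61, from probe sets at -1.09 and -0.14. The lower probe set of each read 881 for Hes5 and 792 for Sox1 in the KO sample, with the MOE430A floor at 736. The other probe set of each fell short of 1.5-fold. Progenitor markers summed to 166118 in the KO sample and 159064 in the wild type on MOE430A. Red blood cell markers, all on MOE430A, summed to 214986 in the KO sample and 279641 in the wild type. Of these, 3 of 3 measured genes were lower, beside 50.2% of all. Probe sets of Hbb-y, an embryonic globin, read from 47498 to 69939 in the KO sample and from 59541 to 89828 in the wild type. Why red blood cell RNA was that high in material given as neurospheres was not tested. Of the oligodendrocyte lineage 3 of 7 genes on the arrays were measured, with Pdgfra and Cspg4 unmeasured. All 3 were lower, beside 50.2% of all measured genes. Summed on MOE430A, the list gave 8676 in the KO sample and 8920 in the wild type. Lists of 6 markers each for astrocytes, microglia, endothelium and mesenchyme had only 2 or 3 measured genes. The summed member signal was 13752 in the KO sample and 18769 in the wild type on MOE430A, a ratio of 0.73, beside 0.88 for neurons, 0.77 for red blood cells and 1.04 for progenitors on that design. That member sum includes Dlx6 and Gsx1, which were not measured. On MOE430B the ratio was 0.71 for the members, 0.80 for neurons and 1.12 for progenitors. The member sum there rests on 2 probe sets, Dlx6os1, lower in the KO sample, and Sp8, higher, so it shows no common direction. The part of neuron, progenitor or blood content in the members' values was not tested.

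The direction of each measured member held in every processing alternative that gave it a value, and Dlx5 and Dlx6os1 stayed past 1.5-fold lower, with Dlx5 between -0.96 and -0.75 on the log2 scale. Several of these alternatives could only return the reported value or shift it slightly, so they are no independent check of direction. The Dlx5 probe set is of the kind that matches several transcripts of a gene, and without that kind Dlx5 had no value.

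**Figure D4:**
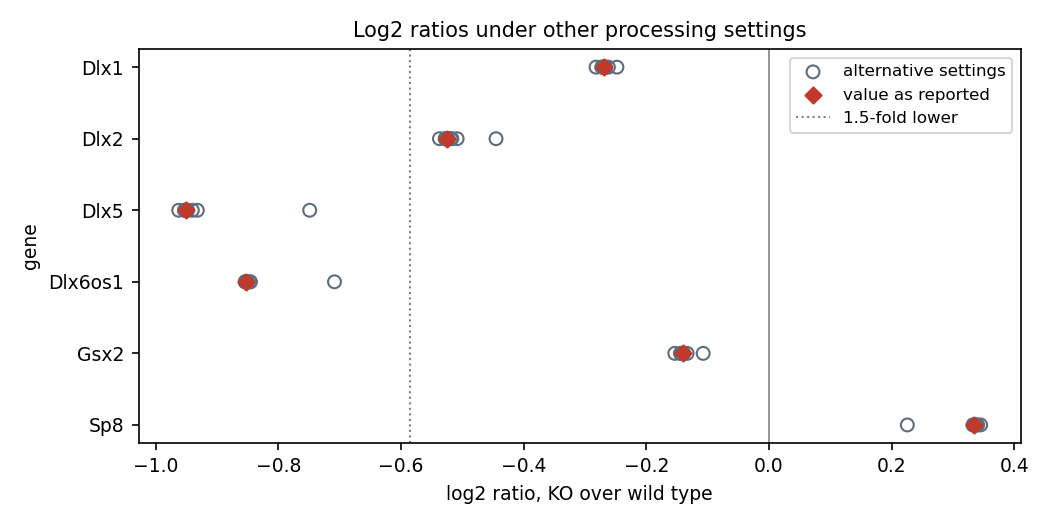
Log2 ratio of KO over wild type of each measured member as reported (red diamond) and under each alternative setting that gave a value (open circles), with 1.5-fold lower dotted. Dlx5 and Dlx6os1 stay left of the dotted line, Dlx1, Dlx2 and Gsx2 lie between it and 0, and Sp8 stays right of 0.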

How the data were processed

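Gene expression was measured on 4 arrays, from 2 RNA samples. The deposited values are MAS5 intensity values per probe set on a linear scale, per the submitters' processing notes, which give no version. Biotinylated cRNA was made from column-purified total RNA without amplification, per the labels' protocols. The tables used here hold no detection calls. The instrument records, other deposited files, were read only for hybridisation days.

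On each design, 64 control probe sets were excluded. Signals were taken to log2, and ratios of KO over wild type were centred on the median of measured probe sets, which was -0.003 for MOE430A and -0.001 for MOE430B. Gene values are means over measured probe sets of both designs. Symbols came from the platform annotation, looked up by gene identifier in RefSeq (GRCm38.p6), which renamed 0; on MOE430A 20380 probe sets carried 1 symbol, 691 several and 1555 none, and on MOE430B these were 14661, 245 and 7605. A bound is the brighter signal over the floor, and no share of all probe sets is given beside bounds. Named genes are all members, the 4 largest absolute ratios of each related list, bounds of at least 2-fold, E2f4 and Xist, and the related lists are those of other Dlx genes, ventral progenitors, GABAergic neurons and dorsal factors. Named outside this rule were Gad2, Hes5 and Sox1, which complete a count, and Hbb-y, all chosen after their values were seen. Also outside it were Dlx3, Pdgfra and Cspg4 as unmeasured list genes, other genes as checks of the source tissue, and the antisense RNAs Dlx1as, Dlx6os2 and Dlx4os. Members, lists and sizes were chosen with earlier results of these data known. The number of arrays limits the precision. No test across samples was possible. The calculation was tested on simulated data. Changes were placed there only in probe sets far brighter than the median, with equal noise on both designs. The dimmer range of most members and the loss at the floor were not tested. Python 3.11.15, numpy 2.4.6, pandas 2.3.3, statsmodels 0.14.6 and matplotlib 3.10.9 were used.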

Additional observations from a re-analysis of the deposited data

How the results depend on the processing

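Other settings were floors at the 30th and the 70th percentile of signals, dropping the floor, adding it as a pseudocount, dropping the centring, quantile normalization, lowess (span 0.3), taking only a gene's brightest probe set, dropping the _x_at, _s_at and _a_at probe sets, and using MOE430A or MOE430B by itself. The sign of each of the 6 measured members held in every alternative that gave it a value, 9 for Dlx5 and Sp8 and 10 for each of the others. Most of these could hardly change a sign. As each member had 1 probe set, taking the brightest probe set or 1 design by itself returned the reported value. Changing the floor or the centring moved all ratios of a design by the same small amount. These counts are therefore no independent check of direction. Dlx5 ranged from -0.96 to -0.75 and Dlx6os1 from -0.85 to -0.71, both always past 1.5-fold. Dlx2 ranged from -0.54 to -0.44, Dlx1 from -0.28 to -0.25, Gsx2 from -0.15 to -0.11 and Sp8 from 0.23 to 0.35. The count of members lower by at least 1.5-fold was 0 at the 2-fold size. It was 1 of 5 without _x_at, _s_at and _a_at probe sets, which removes Dlx5, where 4.58% of all genes were lower by that much. It was 1 of 4 on MOE430A alone, beside 2.12% of all genes, and 1 of 2 on MOE430B alone, beside 6.72%. With the floor at the 30th percentile it was 3 of 8, beside 6.99% of all genes, and with no floor 3 of 8, beside 15.7%. On MOE430B alone 1 of 2 was lower than 0, beside 50.3% of all genes. With the floor at the 30th percentile Gsx1 entered at -0.80 and Dlx6 at -0.03. The members' median lay between -0.52 and -0.26 in all alternatives. Signals near or below the floor limit Dlx6, Gsx1 and Dlx6os2, and 1 sample per genotype limits every value. No paired analysis was possible because each genotype had 1 RNA sample.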

Other observations

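The Dlx pair that is not used in the forebrain, Dlx3 and Dlx4, was represented by 4 probe sets. Dlx3, of skin and placenta, was below the floor in both samples on both of its probe sets, at 679 and 631 in the KO sample and 666 and 429 in the wild type. Dlx4 had log2 ratios of -0.11 on MOE430A and 0.33 on MOE430B, a mean of 0.11 from probe sets on opposite sides. Dlx4os, an antisense RNA of that pair, read 104 in the KO sample and 1581 in the wild type and was at least 1.68-fold lower.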
